A study of Homo sapiens with 18 samples.

Results

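The effect of decitabine was compared between 2 human leukaemia cell lines, gene by gene, as the decitabine effect in MOLM-13 minus the decitabine effect in HL-60. The decitabine effect in a line is the mean log2 value with decitabine minus the mean with the solvent, so a difference above 0 means that the effect was higher in MOLM-13 and a difference below 0 that it was lower there. It drew on 12 of the 18 samples, 3 in each of 4 groups, and on the 15474 genes that could be tested of the 15517 listed for both lines. The other 6 samples, exposed to the nucleoside analogue NTX-301, entered only the estimate of the spread.

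HL-60 is a promyelocytic and MOLM-13 a monocytic acute myeloid leukaemia line. Each was exposed for 48 h to dimethyl sulfoxide (DMSO, the solvent) or to decitabine (labelled DAC), and total RNA was sequenced. HL-60 received decitabine at a stated 30 nM and MOLM-13 at a stated 15 nM, so that every difference between the lines is also a difference between concentrations, and the line and the concentration cannot be told apart. Replicates are the triplicate cultures of the labels' treatment protocol, and nothing more is said of where they came from, so p-values measure only the spread between these samples.

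Decitabine is a deoxycytidine analogue. It is phosphorylated by deoxycytidine kinase (DCK) and built into DNA during replication, where it traps the maintenance DNA methyltransferase DNMT1, so that methylation of CG dinucleotides is lost as cells divide and silenced genes can become active. The trapped enzyme is also a lesion in DNA. MOLM-13 is known to carry a KMT2A fusion and an internal tandem duplication in FLT3.

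All 8 markers of myeloid leukaemia cells that were looked up were listed for both lines. Of 6 markers of KMT2A-rearranged cells 4 were listed for both lines, and HOXA9 and MEIS1 were listed for MOLM-13 alone. Of the markers of other cells, 1 of 15 erythroid and megakaryocyte genes, 2 of 15 T, B and NK cell genes and 2 of 12 epithelial and stromal genes were listed for both. Of these 5, the platelet integrin ITGA2B was called lower in MOLM-13 (−0.55, with effects of 0.59 in HL-60 and 0.04 in MOLM-13), CD4 (0.27) and the keratin KRT8 (0.29) were called higher, and NKG7 and PECAM1 (both 0.10) were not called. Further markers of other cells were listed for 1 line. HBA1, HBA2, HBB, CD3D, PAX5, NCAM1, KRT18 and COL1A1 were listed for MOLM-13 alone, and KLF1 and CD79A for HL-60 alone. The part of other cells in the results was not tested. The 10 highest genes held 9.49% of the summed linear value in MOLM-13 DAC replicate 3 and between 10.79% and 12.24% in the other 11 samples compared. The spread between replicates was smaller in HL-60, where the SD of the log2 difference between replicates was between 0.0623 and 0.0711, than in MOLM-13, where it was between 0.082 and 0.0959. In bulk RNA, fewer cells of a type and less RNA per cell cannot be told apart.

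The decitabine effect differed between the lines for 4638 genes, 30.0% of those tested (limma, adjusted p under 0.05). It was higher in MOLM-13 for 1871 genes (12.1%) and lower there for 2767 (17.9%), and for 4047 genes (26.2%) the 9 sample-by-sample differences between DAC and DMSO in the lines did not overlap. The balance of directions depended on the scaling: 40.3% of the called genes were higher in MOLM-13 as deposited, 34.7% after centring each sample on its median over the tested genes, 22.8% after centring on the median of its whole file and 48.9% after quantile normalization. Most differences were small, with a median size of 0.206 among the called genes on the deposited log2 scale, which may be compressed at low levels. Of the called genes, 186 reached 0.5 in size and 14 reached 1, of which 11 were lower in MOLM-13.

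The effects in the lines had opposite signs for 61.0% of the called genes and for 41.1% of all genes tested; a wide difference favours opposite signs by its construction. Of the genes higher in MOLM-13, 1260 (67.3%) had an effect below 0 in HL-60 and above 0 in MOLM-13, with medians of −0.0809 and 0.138. A further 514 (27.5%) were above 0 in both lines, with medians of 0.0394 and 0.29. Of the genes lower in MOLM-13, 1569 (56.7%) were above 0 in HL-60 and below 0 in MOLM-13, and 977 (35.3%) were below 0 in both, with medians of −0.0452 and −0.228. The absolute effect was larger in MOLM-13, at the lower stated concentration, for 74.8% of the called genes and for 65.5% of all genes tested. Replicates were also further apart in MOLM-13, and a wider spread by itself makes absolute effects larger. Its part in these shares was not tested.

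**Figure D1:**
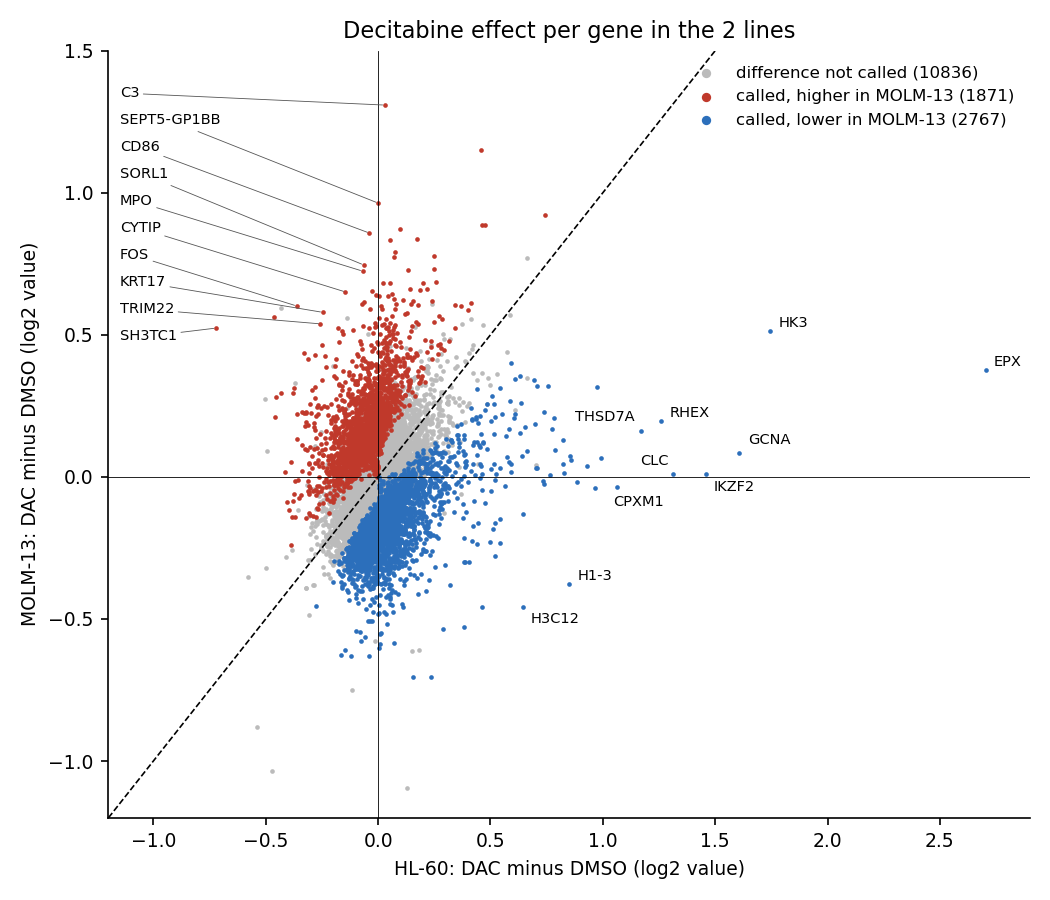
Each point is a gene, with the decitabine effect in HL-60 (mean log2 value with DAC minus DMSO) on the horizontal axis and that in MOLM-13 on the vertical axis; the dashed line marks equal effects, red and blue mark the 1871 and 2767 genes whose effects differed, and grey the rest. The 10 largest differences that met the naming rule in each direction are labelled: those lower in MOLM-13 run along the horizontal axis to EPX at 2.70 and 0.37, and those higher run up the vertical axis to C3 at 0.03 and 1.31.

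Of the 10 widest differences below 0 named by size, 2 were those of the eosinophil granule genes EPX and CLC. They belong to a list of granule proteins, from which the eosinophil genes were picked after their values were seen. EPX (NCBI Gene 8288), the gene of eosinophil peroxidase, had log2 values of 8.49, 8.52 and 8.55 with DMSO and 11.25, 11.20 and 11.22 with DAC in HL-60, and of 9.90, 9.79 and 9.91 with DMSO and 10.23, 10.30 and 10.19 with DAC in MOLM-13. The DAC samples lay above the DMSO samples in both lines, but by 2.70 in HL-60 and 0.37 in MOLM-13. The difference of effects was −2.33 (SE 0.057, limma adjusted p 1.53e-15), the lowest of all 15474 genes. CLC, the Charcot-Leyden crystal protein of eosinophils, read 7.42, 7.29 and 7.26 with DMSO and 8.73, 8.55 and 8.63 with DAC in HL-60 against 4.35, 4.33 and 4.25 with DMSO and 4.31, 4.28 and 4.37 with DAC in MOLM-13. Its MOLM-13 samples overlapped and lay low. For all genes between 4 and 6 in the line where they were lower, the median size of the difference was 0.0586. The difference of CLC was −1.30 (SE 0.068, limma adjusted p 1.06e-10).

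RNASE2, the eosinophil-derived neurotoxin, had effects of opposite sign: it read 9.57, 9.56 and 9.63 with DMSO and 10.21, 10.23 and 10.26 with DAC in HL-60, and 12.28, 12.30 and 12.29 with DMSO and 12.17, 12.20 and 12.10 with DAC in MOLM-13, where its level was higher. Its difference was −0.78 (SE 0.048, limma adjusted p 1.10e-09). PRG2, the eosinophil major basic protein, differed by −0.60 and RNASE3, the eosinophil cationic protein, by −0.37. Of the 17 granule protein genes tested, 6 were called lower in MOLM-13 and 3 higher, 52.9% in all against 30.0% of all genes. The median of −0.0239 lay near that of all genes, −0.00443. The sixth gene called lower was the neutrophil protease gene CTSG (−0.15). The neutrophil protease genes ELANE (0.09), PRTN3 (0.11) and AZU1 (−0.03) were not called. The median of the list changed sign after quantile normalization (0.0258) and without MOLM-13 DMSO replicate 2 (0.00689), and it was −0.00402 without HL-60 DAC replicate 3 and −0.000831 without MOLM-13 DAC replicate 2.

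MPO, the myeloperoxidase of neutrophil and monocyte granules, went the other way. It was by far higher in HL-60, where it read 18.67, 18.70 and 18.75 with DMSO and 18.63, 18.63 and 18.65 with DAC, than in MOLM-13, where it read 13.08, 13.001 and 13.04 with DMSO and 13.76, 13.80 and 13.74 with DAC. The MOLM-13 DAC samples were all above the DMSO samples, the HL-60 DAC samples were all slightly below theirs, and the difference was 0.79 (SE 0.034, limma adjusted p 1.12e-11). LYZ (lysozyme) differed by 0.53 and BPI, the bactericidal permeability-increasing protein, by 0.34.

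GCNA (NCBI Gene 93953) is a gene of germ cells whose product takes part in the repair of proteins crosslinked to DNA. Its mean deposited value in DMSO was 7.70 in HL-60 and 7.57 in MOLM-13, lines that may have been scaled apart. It read 7.74, 7.71 and 7.66 with DMSO and 9.28, 9.32 and 9.33 with DAC in HL-60, and 7.58, 7.54 and 7.60 with DMSO and 7.73, 7.57 and 7.68 with DAC in MOLM-13. All 3 HL-60 DAC samples lay above the other 9 samples, while DAC and DMSO overlapped in MOLM-13. The difference was −1.52 (SE 0.075, limma adjusted p 5.36e-11). Only 5 of the 39 germline genes looked up could be tested, and 2 were called, 40.0% against 30.0% of all genes. After GCNA, the melanoma antigen gene MAGEB2 was called lower (−0.57, limma adjusted p 2.33e-06), while SOHLH2 (−0.26), HORMAD1 (−0.04) and SYCE2 (−0.01) were not called. The list's median of −0.262 rested on SOHLH2, and it was −0.033 without HL-60 DAC replicate 1.

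IKZF2, which encodes the Ikaros family zinc finger protein Helios, differed by −1.45 (SE 0.061, limma adjusted p 1.12e-11). In HL-60 it read 11.20, 11.17 and 11.19 with DMSO and 12.62, 12.67 and 12.64 with DAC, and in MOLM-13 6.43, 6.39 and 6.32 with DMSO and 6.37, 6.48 and 6.31 with DAC. The lines were far apart before treatment, and only the HL-60 groups were separated. The 150 bases before the starts of GCNA and IKZF2, the 2 named genes of this direction next to EPX, and of SH3TC1 and FOS, 2 genes of the other direction described further on, are shown with each CG, the dinucleotide whose methylation decitabine lowers, in capitals. They were taken from the RefSeq promoter table of GRCh38.p14, whose build is not the hg19 build of the study, and those of EPX and C3 are not shown.
GCNA, chrX:71578287-71578436, plus strand: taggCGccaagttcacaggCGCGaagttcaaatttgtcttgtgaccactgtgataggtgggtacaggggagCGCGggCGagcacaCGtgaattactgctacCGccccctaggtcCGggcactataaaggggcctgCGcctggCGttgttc
IKZF2, chr2:213152457-213152606, minus strand: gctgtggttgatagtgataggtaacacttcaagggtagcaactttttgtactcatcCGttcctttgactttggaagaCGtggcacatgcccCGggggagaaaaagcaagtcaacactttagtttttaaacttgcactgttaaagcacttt
SH3TC1, chr4:8199140-8199289, plus strand: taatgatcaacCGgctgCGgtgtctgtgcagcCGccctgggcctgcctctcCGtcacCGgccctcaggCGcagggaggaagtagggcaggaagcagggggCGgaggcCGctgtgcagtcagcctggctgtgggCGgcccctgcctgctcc
FOS, chr14:75278678-75278827, plus strand: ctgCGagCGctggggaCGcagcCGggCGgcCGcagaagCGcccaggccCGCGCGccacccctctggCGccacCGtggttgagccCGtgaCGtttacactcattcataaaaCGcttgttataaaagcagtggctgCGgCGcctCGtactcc
These stretches held 11, 3, 9 and 18 CG, and the 250 bases before the start held 18, 4, 12 and 25. The median over the 9270 protein-coding genes tested with an entry, 82.8% of them, was 21 CG in 250 bases. At most 5 CG were found in 15.9% of the promoters of protein-coding genes called higher in MOLM-13, in 5.8% of those called lower and in 9.06% of all. Among called genes with a difference of at least 0.5 in size, both shares were above that of all. They were 37.5% of 56 promoters of genes called higher and 23.2% of 69 of genes called lower. These counts are a description of the reference sequence, and methylation was not measured.

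Other genes lower in MOLM-13 shared the pattern of IKZF2, in that the HL-60 groups were further apart than those of MOLM-13. HK3, a hexokinase of myeloid cells, had effects of 1.75 in HL-60 and 0.51 in MOLM-13, a difference of −1.23 (SE 0.071, limma adjusted p 5.01e-10). RHEX, a gene for a regulator of erythroid expansion, had 1.26 and 0.20. PPP1R27, a regulatory subunit of protein phosphatase 1, read 7.65, 7.60 and 7.69 with DMSO and 8.63, 8.61 and 8.59 with DAC in HL-60 against 14.71, 14.72 and 14.70 with DMSO and 14.65, 14.73 and 14.63 with DAC in MOLM-13. It was separated in HL-60 and overlapped in MOLM-13, where its level was far higher, and its difference was −1.003 (SE 0.043, limma adjusted p 1.12e-11). CPXM1 (−1.10) and THSD7A (−1.01) completed the 10 named by size together with the histone genes given with the cell cycle.

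Above 0, the widest difference was that of C3 (NCBI Gene 718), the central component of complement, which monocytes and macrophages make. It read 6.56, 6.58 and 6.57 with DMSO and 6.57, 6.66 and 6.56 with DAC in HL-60, and 8.86, 8.93 and 8.99 with DMSO and 10.29, 10.22 and 10.19 with DAC in MOLM-13. The HL-60 groups overlapped, the MOLM-13 groups did not, and the difference was 1.28 (SE 0.064, limma adjusted p 7.30e-11). CD86, a costimulatory ligand of antigen-presenting cells, had the same pattern. Its values were 6.60, 6.57 and 6.61 with DMSO and 6.61, 6.57 and 6.48 with DAC in HL-60, against 8.87, 8.92 and 9.01 with DMSO and 9.79, 9.83 and 9.76 with DAC in MOLM-13, a difference of 0.90 (SE 0.062, limma adjusted p 5.58e-09).

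Both belong to a list of 40 genes of monocyte and granulocyte maturation, of which 30 were tested. Of these 20 were called higher in MOLM-13 and 1 lower, against 12.1% and 17.9% of all genes, and the median difference was 0.407. The genes called higher included the calprotectin subunits S100A9 (0.72) and S100A8 (0.48), the integrins ITGAM (0.63) and ITGAX (0.59), the NADPH oxidase subunits NCF1 and CYBB (both 0.41), and the receptor of macrophage colony-stimulating factor, CSF1R (0.42). S100A9 read 8.56, 8.69 and 8.70 with DMSO and 8.76, 8.71 and 8.71 with DAC in HL-60 against 7.62, 7.65 and 7.60 with DMSO and 8.58, 8.39 and 8.29 with DAC in MOLM-13. The HL-60 groups were adjacent and the MOLM-13 groups were far apart. The 1 gene called lower was the Fc receptor gene FCGR1A (−0.22, limma adjusted p 0.0192), whose sample differences overlapped and whose call was lost without HL-60 DMSO replicate 1 (−0.186), MOLM-13 DMSO replicate 2 (−0.189) or 3 (−0.187) or MOLM-13 DAC replicate 3 (−0.194). The number of maturation genes called lower was 4 without MOLM-13 DAC replicate 1 and after centring on the whole file, 3 after centring over the tested genes and 0 after quantile normalization.

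Many maturation genes were low in HL-60, where the list's median level was 8.63 against 10.5 in MOLM-13. Values varied little only below 4 in the lower line, where the median SE of all genes was 0.0196, against 0.0699 between 6 and 8. For the 19 members whose mean log2 value reached 8 in HL-60 and in MOLM-13, 9 were called higher, 1 was called lower and the median difference was 0.0744. The other 11 members, lower in at least 1 line, were all called higher. CEBPE, a transcription factor of granulocyte maturation, had its higher level in HL-60, where its effect was 0.19 against 0.66 in MOLM-13, a difference of 0.47.

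**Figure D2:**
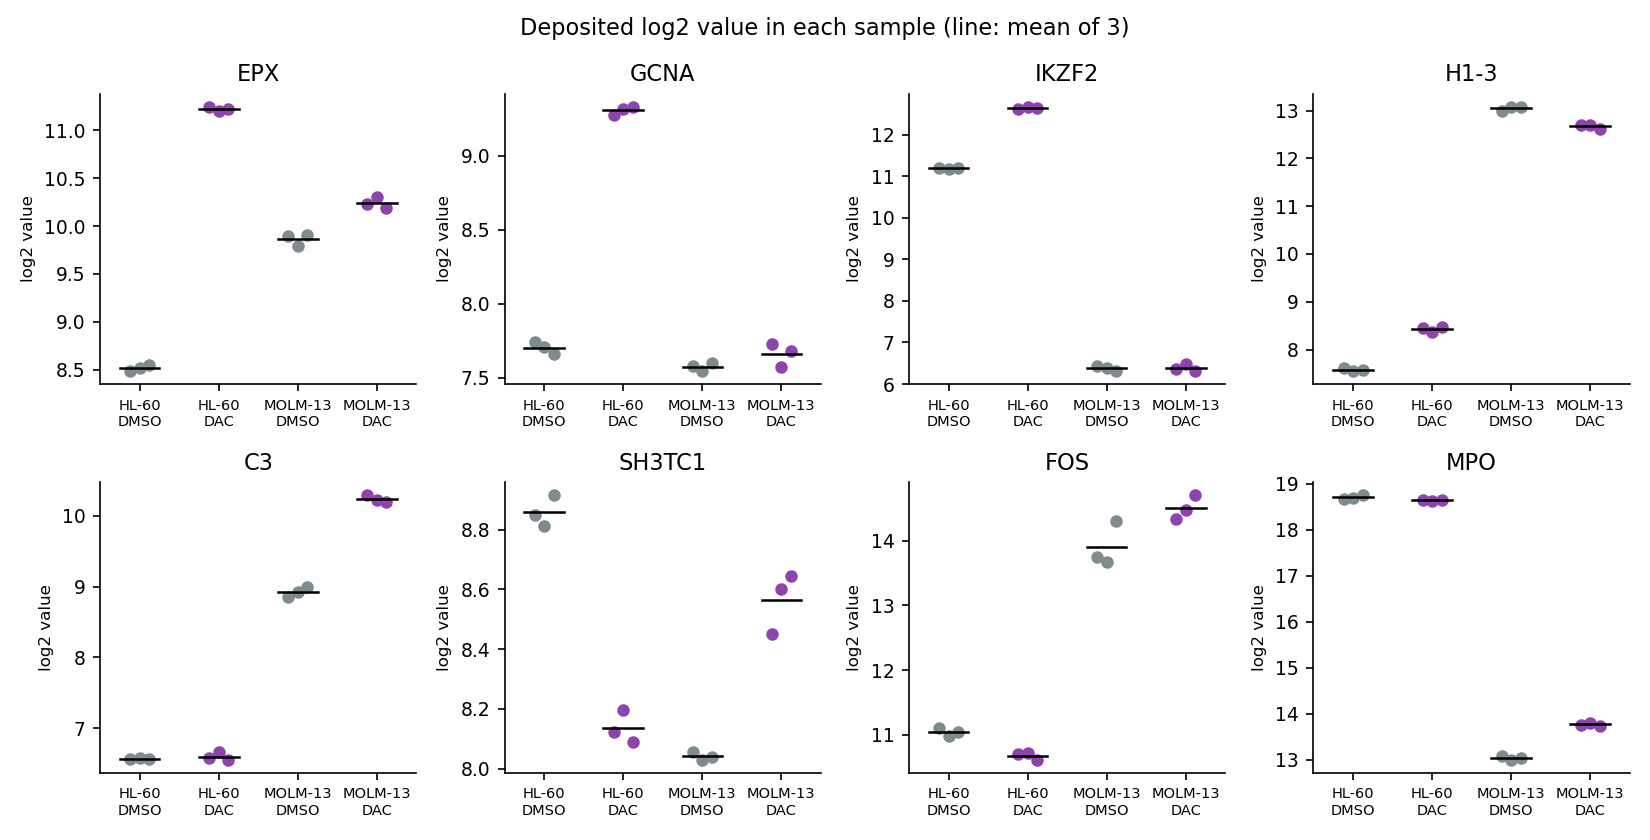
Deposited log2 value (vertical axes, each with its own range that does not start at 0) of 8 genes in each of the 12 samples, by line and treatment; points are replicates, grey for DMSO and purple for DAC, and the bar is the mean of 3. EPX, GCNA and IKZF2 are separated by treatment mainly in HL-60, C3 and MPO mainly in MOLM-13, and H1-3, SH3TC1 and FOS have effects of opposite sign in the lines.

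SH3TC1 had the second widest difference above 0 and had effects of opposite sign. It read 8.85, 8.81 and 8.92 with DMSO and 8.12, 8.20 and 8.09 with DAC in HL-60, and 8.06, 8.03 and 8.04 with DMSO and 8.45, 8.60 and 8.65 with DAC in MOLM-13. No treated sample overlapped the controls of its line, and the difference was 1.25 (SE 0.082, limma adjusted p 2.78e-09). SORL1, a sorting receptor, differed by 0.81, CYTIP, a partner of cytohesin in blood cells, by 0.80, and the keratin gene KRT17 by 0.83. The readthrough gene SEPT5-GP1BB differed by 0.96 (SE 0.14), and as it shares sequence with the genes it joins, this value is uncertain.

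Immediate-early genes, which growth factors and stress switch on within minutes, were called higher in MOLM-13 by limma in 11 of 26 cases and lower in 0 (1 at an unadjusted p under 0.05), with a median difference of 0.123. In all 42.3% of the list was called, against 30.0% of all genes. Over all genes 12.1% were called higher and 17.9% lower. FOS, a subunit of the AP-1 transcription factor, read 11.10, 10.98 and 11.05 with DMSO and 10.70, 10.72 and 10.62 with DAC in HL-60, and 13.74, 13.67 and 14.30 with DMSO and 14.34, 14.48 and 14.70 with DAC in MOLM-13. The HL-60 DAC samples were all below their controls and the MOLM-13 DAC samples all above theirs, although MOLM-13 DMSO replicate 3 came within 0.04 of the lowest DAC sample. The difference was 0.96 (SE 0.16, limma adjusted p 1.64e-04) and ranged from 0.85 to 1.16 as single samples were left out. FOSB had effects of −0.46 in HL-60 and 0.56 in MOLM-13, a difference of 1.03 (SE 0.24, limma adjusted p 0.00313), but its sample differences in the lines overlapped. NR4A2, an orphan nuclear receptor, differed by 0.60 (SE 0.11), but in MOLM-13 its DMSO replicate 3 (10.23) was above DAC replicate 1 (10.15). JUNB (0.45), DUSP1 (0.42, SE 0.14) and KLF6 (0.38, SE 0.11) were also called, while EGR1 (−0.12) and MYC (−0.08) were not. The sample differences of DUSP1 and KLF6 overlapped between the lines. Without MOLM-13 DMSO replicate 2 the number called higher was 7. Of the 17 members whose mean log2 value reached 8 in each line, 7 were called higher.

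Genes of DNA replication were lower in MOLM-13 in every case tested: 42 of 42 were called, with a median difference of −0.298. Of all genes 17.9% were called lower. Of those with a mean log2 value of 12 or more in the line where they were lower, the share was 41.2%. CDC45, part of the replicative helicase, read 12.52, 12.51 and 12.55 with DMSO and 12.72, 12.67 and 12.72 with DAC in HL-60, and 12.34, 12.32 and 12.39 with DMSO and 12.003, 11.998 and 11.98 with DAC in MOLM-13. Every HL-60 DAC sample was above its controls and every MOLM-13 DAC sample below, and the difference was −0.53 (SE 0.04, limma adjusted p 1.87e-08). GINS2, another helicase subunit, differed by −0.48 and RRM2, the ribonucleotide reductase subunit made in S phase, by −0.44. The 6 MCM genes of the helicase ring lay between −0.35 (MCM6 and MCM7) and −0.30 (MCM5). The values nearest 0 were those of LIG1 (−0.15), POLA2 (−0.17) and PCNA (−0.18).

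Genes of the G2 phase and mitosis were also all called lower in MOLM-13, 40 of 40, with a median of −0.341. Their sample differences in the lines did not overlap for any of the 40, against 26.2% of all genes without overlap. For 34 of them the effect was above 0 in HL-60 and below 0 in MOLM-13, and the medians of the effects were 0.0527 and −0.297. CENPA, the histone variant of centromeres, read 10.56, 10.48 and 10.56 with DMSO and 10.72, 10.61 and 10.59 with DAC in HL-60, and 11.02, 11.11 and 11.11 with DMSO and 10.69, 10.59 and 10.61 with DAC in MOLM-13. The HL-60 groups were adjacent, the MOLM-13 groups were far apart, and the difference was −0.55 (SE 0.058, limma adjusted p 8.91e-07). PBK, a mitotic kinase, differed by −0.56 and NUF2, a kinetochore protein, by −0.50. At the other end of the list stood CDC20 and UBE2C (both −0.21). After quantile normalization 38 of the 42 replication genes and 40 of the 40 mitosis genes were called lower, with medians of −0.247 and −0.288.

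The promoters of these genes were read for 2 short motifs, each on either strand. They were CCAAT, which the factor NF-Y binds, and TTTGAA, a form of the cell cycle homology element. Within 250 bases before the start, CCAAT was found in 26 of 33 promoters of G2 and mitosis genes (78.8%), TTTGAA in 18 (54.5%) and both in 16 (48.5%). Entries existed for 82.5% of the list. The shares among all protein-coding genes tested were 36.0%, 8.8% and 3.7%, and those among all 27305 promoters listed were 33.0%, 13.6% and 4.85%. Of 36 promoters of DNA replication genes, 19 held CCAAT (52.8%) and 1 held TTTGAA. The 150 bases before the starts of CENPA, NUF2 and CDC45, 3 of the named cell cycle genes, show this range. CCAAT or its reverse complement ATTGG and TTTGAA or its reverse complement TTCAAA are in capitals. The promoter of PBK, whose difference was slightly wider, is not shown.
CENPA, chr2:26785906-26786055, plus strand: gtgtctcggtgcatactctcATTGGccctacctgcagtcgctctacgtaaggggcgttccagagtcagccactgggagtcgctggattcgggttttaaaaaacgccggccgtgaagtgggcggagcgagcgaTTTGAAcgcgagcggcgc
NUF2, chr1:163321804-163321953, plus strand: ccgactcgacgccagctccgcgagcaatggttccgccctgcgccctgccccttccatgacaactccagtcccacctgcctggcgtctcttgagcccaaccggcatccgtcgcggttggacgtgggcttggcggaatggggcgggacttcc
CDC45, chr22:19479770-19479919, plus strand: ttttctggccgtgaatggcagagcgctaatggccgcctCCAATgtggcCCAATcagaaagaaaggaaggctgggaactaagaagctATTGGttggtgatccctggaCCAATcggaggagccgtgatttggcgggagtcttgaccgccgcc
The CENPA stretch held 1 match to each motif, that of CDC45 held 4 matches to CCAAT, and that of NUF2 held 0. A match is a run of letters, and binding was not measured. Whether the motifs bear on the difference of effects was not tested. Among protein-coding genes as a whole, CCAAT was found in 42.0% of the promoters of genes called lower in MOLM-13 and in 29.4% of those called higher.

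Histone genes, whose messages are made in S phase, were called lower in MOLM-13 in 41 of 42 cases, against 17.9% of all genes. Their median of −0.441 was the lowest of the 18 lists. H1-3, a linker histone, read 7.61, 7.55 and 7.57 with DMSO and 8.45, 8.36 and 8.47 with DAC in HL-60, and 12.99, 13.08 and 13.07 with DMSO and 12.70, 12.70 and 12.61 with DAC in MOLM-13. It had effects of opposite sign without overlap, from a far higher level in MOLM-13, and the difference was −1.23 (SE 0.056, limma adjusted p 1.74e-11). H3C12 (−1.10) had a low mean of 5.80 in HL-60 DMSO and 13.64 in MOLM-13 DMSO. H4C4, at levels over 12 in both lines, read 12.01, 12.07 and 12.06 with DMSO and 12.49, 12.50 and 12.53 with DAC in HL-60 against 14.13, 14.22 and 14.19 with DMSO and 13.79, 13.84 and 13.54 with DAC in MOLM-13, a difference of −0.92 (SE 0.073, limma adjusted p 3.69e-08). Only H2BC3 (−0.02) was not called. Histone genes are near-identical copies, so reads may be split between them and single values are uncertain. CCAAT was found in 31 of 37 histone promoters (83.8%).

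**Figure D3:**
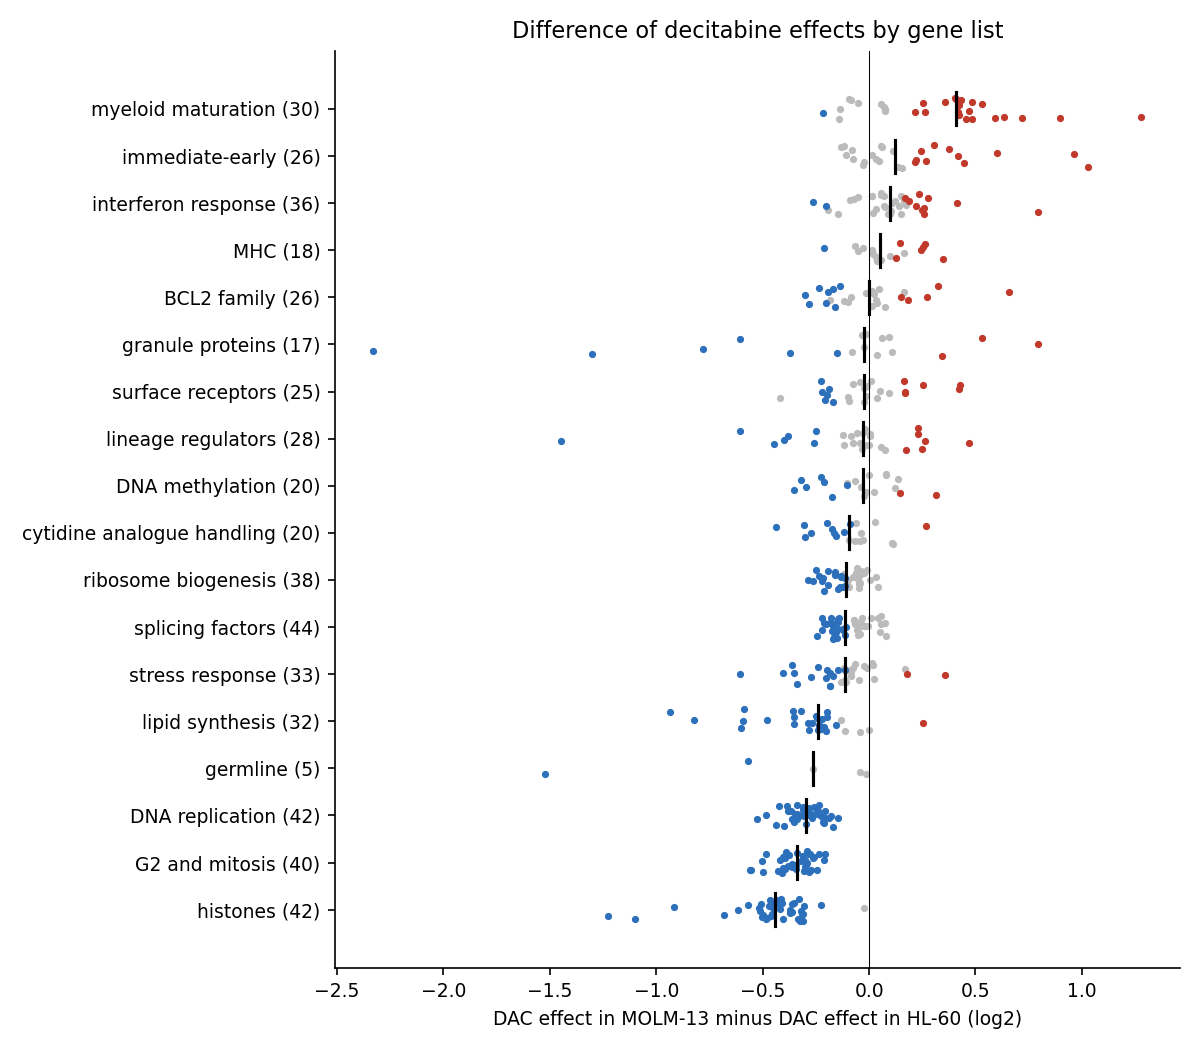
Difference of decitabine effects (MOLM-13 minus HL-60, log2, horizontal axis) for each tested member of 18 gene lists, ordered by their median (black bar), with the number tested in brackets; red and blue points were called higher and lower in MOLM-13 and grey points were not called. The medians run from −0.441 for histones to 0.407 for myeloid maturation, and the replication and mitosis lists hold no point above 0.

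Genes of cholesterol and fatty acid synthesis were called lower in MOLM-13 in 27 of 32 cases, against 17.9% of all genes, with a median of −0.238. Of the 30 members whose mean log2 value reached 8 in each line, 26 were called lower. FADS2, a desaturase of polyunsaturated fatty acids, read 9.24, 9.20 and 9.23 with DMSO and 9.38, 9.48 and 9.51 with DAC in HL-60, and 10.26, 10.26 and 10.34 with DMSO and 9.55, 9.60 and 9.60 with DAC in MOLM-13. It was higher with DAC in each HL-60 sample and lower in each MOLM-13 sample than in any control of the line, and the difference was −0.94 (SE 0.069, limma adjusted p 1.37e-08). Its neighbour in the pathway FADS1 differed by −0.82, with effects of 0.29 and −0.53. INSIG1, a sterol sensor of the endoplasmic reticulum, had effects of 0.01 in HL-60 and −0.59 in MOLM-13, a difference of −0.60 (SE 0.035, limma adjusted p 5.01e-10). The stearoyl-CoA desaturase gene SCD and the sterol demethylase gene CYP51A1 both differed by −0.59. The regulator SREBF1 (−0.32) was called lower as well, whereas SREBF2 (0.00) was not called. TM7SF2 (0.25) was the 1 member called higher. CCAAT was found in 18 of 26 promoters of this list (69.2%).

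**Figure D4:**
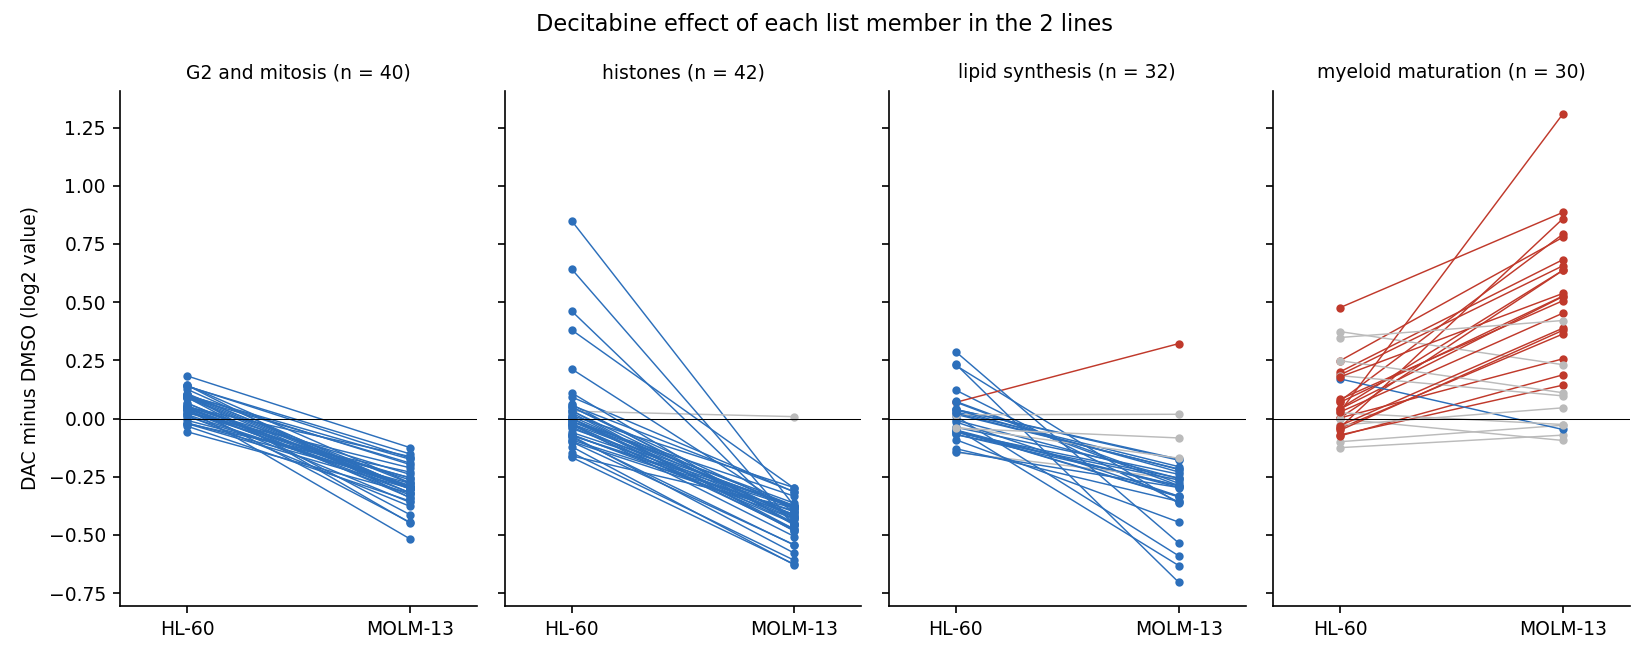
Decitabine effect (mean log2 value with DAC minus DMSO, vertical axis) of each tested member of 4 lists in HL-60 and in MOLM-13, joined by a line that is blue where the difference was called lower in MOLM-13, red where called higher and grey where not called. The 40 G2 and mitosis genes lie around 0.0527 in HL-60 and around −0.297 in MOLM-13 (medians), while the 30 myeloid maturation genes lie around 0.0351 and 0.405.

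Enzymes that make amino acids were part of a stress response list in which 15 of 33 genes were called lower in MOLM-13 and 2 higher. The median was −0.112. In all 51.5% of the list was called, against 30.0% of all genes. Among all genes with a mean log2 value of 12 or more in the lower line, 49.9% were called. ASNS, the asparagine synthetase, had effects of 0.30 in HL-60 and −0.31 in MOLM-13, a difference of −0.61 (SE 0.072, limma adjusted p 4.47e-06). The serine synthesis genes PSAT1 (−0.41) and PHGDH (−0.36) and the transcription factor ATF4 (−0.27) were also called lower, but PSPH, the third enzyme of serine synthesis, was not called (0.01). Chaperone genes were divided. HSPE1 (−0.34), HSPD1, HSPA9 (both −0.18), HSPH1 (−0.17) and HSP90B1 (−0.11) were called lower, whereas HSPA1A (−0.09), HSPA8 (−0.07) and HSP90AA1 (−0.02) were not called. The genes called higher were SESN2 (0.36) and DDIT3 (0.18, limma adjusted p 0.0382). DDIT3 lost its call without replicate 2 or 3 of either DMSO group or of HL-60 DAC, or without MOLM-13 DAC replicate 1 or 3, at values from 0.139 to 0.185. It was also not called in the fit of the 12 samples alone (0.178), after centring on the whole file (0.139) or after quantile normalization (0.115). GLUL, the glutamine synthetase, was outside the list but had 1 of the 5 lowest p-values among the genes lower in MOLM-13. It read 15.74, 15.76 and 15.76 with DMSO and 16.25, 16.23 and 16.27 with DAC in HL-60, and 14.16, 14.20 and 14.19 with DMSO and 13.99, 13.95 and 13.92 with DAC in MOLM-13, in opposite directions without overlap, for a difference of −0.73 (SE 0.032, limma adjusted p 1.48e-11).

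DNMT1, the enzyme that decitabine traps, read 14.27, 14.30 and 14.35 with DMSO and 14.35, 14.33 and 14.34 with DAC in HL-60, and 14.58, 14.51 and 14.53 with DMSO and 14.34, 14.38 and 14.36 with DAC in MOLM-13. The HL-60 groups overlapped and the MOLM-13 groups did not, and the difference was −0.21 (SE 0.031, limma adjusted p 5.04e-05). UHRF1, which brings DNMT1 to newly copied DNA, differed by −0.32 (SE 0.035, limma adjusted p 1.73e-06), and the chromatin remodeller HELLS by −0.30. The methyl-CpG binding factor ZBTB33 had the lowest value of this list (−0.35). The de novo methyltransferases DNMT3A (0.14, limma adjusted p 0.137) and DNMT3B (−0.10, limma adjusted p 0.24) were not called, but DNMT3A was 0.198 and called without HL-60 DAC replicate 2. Of 20 DNA methylation genes tested, 7 were called lower and 2 higher, 45.0% in all against 30.0% of all genes. Among all genes with a mean log2 value of 12 or more in the lower line, 49.9% were called. The list's median of −0.0303 lay near that of all genes. The 2 called higher were GADD45A (0.31) and TET2 (0.14), of which TET2 was not called after centring on the whole file (0.104). The number called higher was 4 without MOLM-13 DMSO replicate 1.

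Of 20 genes that take up, activate or degrade cytidine analogues, 10 were called lower in MOLM-13 and 1 higher, with a median of −0.0935. That is 55.0% called, against 30.0% of all genes. Among all genes with a mean log2 value of 12 or more in the lower line, 49.9% were called and 41.2% called lower. DCK, the activating kinase, read 11.97, 11.94 and 11.94 with DMSO and 11.96, 11.98 and 11.91 with DAC in HL-60, and 12.23, 12.32 and 12.29 with DMSO and 12.16, 12.001 and 12.09 with DAC in MOLM-13. Treated and control samples overlapped in HL-60 and were separate in MOLM-13, and the difference was −0.20 (SE 0.048, limma adjusted p 0.00447). SAMHD1, a hydrolase of deoxynucleoside triphosphates including that of decitabine, was the gene called higher. It read 11.51, 11.44 and 11.34 with DMSO and 11.39, 11.35 and 11.40 with DAC in HL-60 against 12.80, 12.86 and 12.87 with DMSO and 13.09, 13.06 and 13.03 with DAC in MOLM-13, a difference of 0.27 (SE 0.057, limma adjusted p 0.00132). NME1, a nucleoside diphosphate kinase (−0.30), and RRM1 (−0.31) were called lower, while the nucleoside transporter SLC29A1 (−0.10) and the deaminase DCTD (−0.07) were not called. Under quantile normalization 6 genes of this list were called lower and 3 higher. CDA, the cytidine deaminase, was listed for MOLM-13 alone and the transporter SLC28A3 for HL-60 alone.

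Interferon response genes were called about as often as all genes, 33.3% against 30.0%, with 10 of 36 higher in MOLM-13 and 2 lower and a median of 0.1. Of the 18 members whose mean log2 value reached 8 in each line, 4 were called higher and 1 lower. TRIM22, an antiviral protein that interferon induces, had the widest difference of the list. It read 10.16, 10.20 and 10.15 with DMSO and 9.89, 9.88 and 9.96 with DAC in HL-60 against 12.43, 12.50 and 12.45 with DMSO and 13.03, 12.998 and 12.97 with DAC in MOLM-13. The HL-60 DAC samples were all below their controls and the MOLM-13 DAC samples all above theirs, and the difference was 0.80 (SE 0.041, limma adjusted p 8.66e-11). IFI6 (0.41) and OAS1 (0.28) followed, and MX1 (0.03) and ISG15 (0.08) were not called. The genes called lower were IFITM2 (−0.26) and USP18 (−0.20, limma adjusted p 0.0342). USP18 lost its call without HL-60 DMSO replicate 2 or 3, HL-60 DAC replicate 1 or 3, MOLM-13 DMSO replicate 1 or 2 or MOLM-13 DAC replicate 1, at values from −0.202 to −0.167. Of 18 genes of antigen presentation tested, 6 were called higher and 1 lower, 38.9% in all against 30.0% of all genes. Those called higher included NLRC5, the activator of class I genes (0.35), HLA-DMA (0.26) and ERAP2 (0.25), and TAP1 (−0.21) was called lower. HLA-DMA lay low in HL-60, with means of 4.92 with DMSO and 4.97 with DAC. ERAP2 had effects below 0 in both lines, −0.31 in HL-60 and −0.05 in MOLM-13. The class II gene HLA-DRA and CIITA, the activator of class II genes, were not listed for HL-60.

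Regulators of cell death were split. Of 26 BCL2 family and caspase genes, 5 were called higher in MOLM-13 and 8 lower, 50% in all against 30.0% of all genes, with a median of −0.00167. After quantile normalization 5 were called lower, and the 23 members whose mean log2 value reached 8 in each line had a median of −0.0844. BMF, a BH3-only activator of cell death, read 10.59, 10.62 and 10.61 with DMSO and 10.50, 10.41 and 10.45 with DAC in HL-60, and 11.25, 11.26 and 11.21 with DMSO and 11.75, 11.73 and 11.76 with DAC in MOLM-13. These groups had effects of opposite sign with no overlap, and the difference was 0.66 (SE 0.036, limma adjusted p 2.02e-10). BIK (−0.30) and BCL2 (−0.17) were called lower. BAX (0.32) and MCL1 (0.15) were called higher, and BCL2L1 (0.01) and BCL2L11 (0.02) were not called.

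Of 28 lineage regulators tested, IKZF2 among them, 7 were called lower and 6 higher, 46.4% in all against 30.0% of all genes. Their median was −0.0303. GATA2, a factor of progenitor and mast cells, had effects of 0.78 in HL-60 and 0.17 in MOLM-13, a difference of −0.61 (SE 0.059, limma adjusted p 4.56e-07), and HOXA11 (−0.45), RUNX2 (−0.40) and MYB (−0.38) were called lower. The myeloid factors SPI1 (0.25) and CEBPA (0.23) were called higher. Of 25 surface receptor genes, 6 were called higher and 6 lower, 48.0% in all against 30.0% of all genes, with a median of −0.0244. IL2RG, the common gamma chain of cytokine receptors, differed by 0.43, and FLT3, mutated in MOLM-13, by −0.21 (SE 0.037, limma adjusted p 3.76e-04). CXCR4, the receptor for the chemokine that holds cells in the marrow, had effects of 0.43 and 0.21 and a difference of −0.22. KIT and IKZF3 were listed for HL-60 alone, and AXL and IRF8 for MOLM-13 alone.

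The counts for ribosome biogenesis and splicing genes were near those of other genes at high levels and depended on the scaling. Of the 2939 genes of any kind with a mean log2 value of 12 or more in the lower line, 49.9% were called and 41.2% were called lower. Of 38 ribosome biogenesis genes, 18 were called lower in MOLM-13 by limma (47.4%) and 0 higher, also 0 at an unadjusted p under 0.05, with a median of −0.108. After centring on the whole file 28 were called lower, and after quantile normalization 10 were called lower and 2 higher. NIP7 (−0.29), RRP9 (−0.27) and EBNA1BP2 (−0.25) were the lowest, and the nucleophosmin gene NPM1 was at −0.13. Of 44 splicing factors, 22 were called lower by limma (50%) and 0 higher, also 0 at an unadjusted p under 0.05, with a median of −0.112, and 13 lower and 2 higher after quantile normalization. TRA2B (−0.24), SRSF9 (−0.22) and SRSF4 (−0.22) led that list, whereas SF3B1 (−0.04) and U2AF2 (−0.02) were not called.

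Which genes could be called, and in which direction, varied with the level. Each gene was placed by its mean log2 value in the line where it was lower. Below 4, 6.9% of 1566 genes were called, 78 higher in MOLM-13 and 30 lower. Between 6 and 8 the share was 22.9%, with 320 higher and 134 lower. At 12 and over, 49.9% of 2939 genes were called, 256 higher and 1210 lower. Genes higher in MOLM-13 thus prevailed among low genes and genes lower there among high genes, as the bar chart of calls by level shows. The median SE was 0.0196 below 4, 0.0699 between 6 and 8 and 0.0374 at 12 and over, and the median size of the difference was 0.0147, 0.108 and 0.102.

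**Figure D5:**
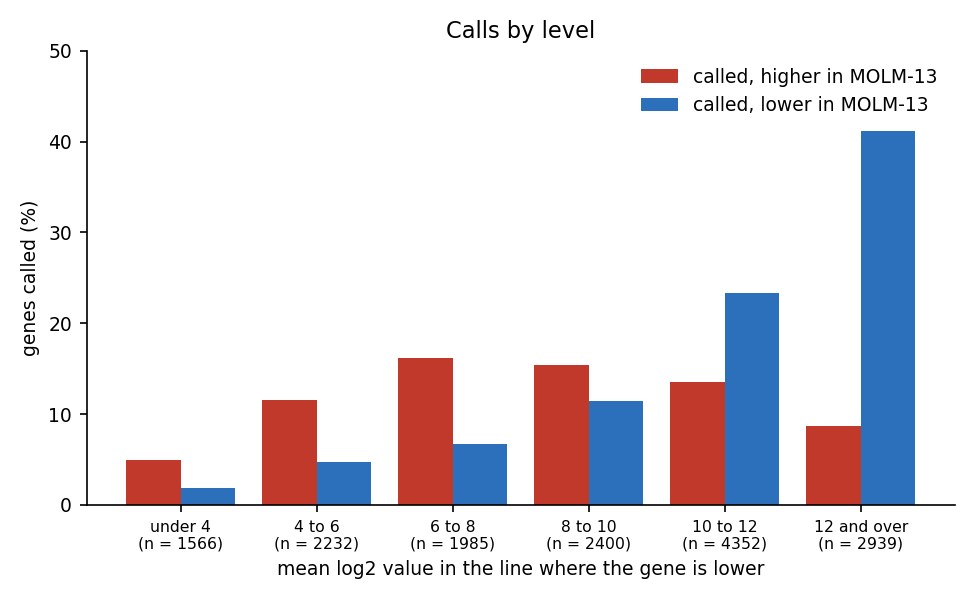
Share of genes whose decitabine effect was called higher (red) or lower (blue) in MOLM-13 (vertical axis, percent of the genes in the class), by the mean log2 value in the line where the gene is lower (horizontal axis, number of genes in brackets). At levels of 12 and over 1210 of 2939 genes were called lower and 256 higher, and below 4 the numbers were 30 and 78 of 1566.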

How the data were processed

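Each deposited file held 1 expression value per gene of 1 sample. The authors deposited these values on a log2 scale, read from the values, and neither the labels nor the file headers name the normalization. Per the submitters' processing notes, FastQC, Trimmomatic 0.38, HISAT2 and StringTie were used with the hg19 build; their roles and settings are not given in the sources used here. The gene sets were identical within a line and differed between lines (17110 genes in HL-60, 17475 in MOLM-13), as if each line had been normalized apart. The median log2 value over the tested genes was between 10.009 and 10.016 in HL-60 DMSO samples and between 10.314 and 10.316 in MOLM-13 DMSO samples. A level compared between the lines may thus be shifted by the scaling. The median size of the difference was 0.0147 for genes below 4 in the lower line, 0.0586 between 4 and 6 and 0.108 between 6 and 8. Differences of genes below 6 may thus be compressed. Read depth is unknown, so the precision of a value is known only from its replicates.

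Of the genes listed for both lines, 43 that did not reach a linear value of 1 in 3 or more samples of each line were removed. All 18 samples entered 1 limma 3.58.1 fit in R 4.3.3 (a mean per group, eBayes with a mean-variance trend, 12 residual degrees of freedom), and the difference of effects was read out as a contrast with two-sided p-values, adjusted by Benjamini-Hochberg over 15474 genes with a threshold of 0.05. The steps were tested on simulated data. No overlap means that the 9 differences between DAC and DMSO samples of 1 line lay all above or all below the 9 of the other.

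The comparison and the 18 gene and 6 marker lists were chosen with earlier results of these data known; some genes, and a list that depends on them, are not reported here. Lists are described by counts and medians only, and some genes stand in more than 1 list. Genes were named by a rule: the 10 highest and 10 lowest differences among called genes without overlap and with a group mean of 5 or more on the linear scale, up to 3 called members per list and direction, the 5 lowest p-values per direction, and the genes of the drug's target and metabolism. Other list members given as examples were chosen after their values were seen. Promoters came from the RefSeq table of GRCh38.p14, matched by NCBI Gene ID for 10254 genes, and only the 250 bases before the start were read. Alternatives were the 12 samples alone, other variance settings, 3 scalings, the filter, levels of at least 8, a replicate block, a minimum size and leaving out each sample.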

Additional observations from a re-analysis of the deposited data

Results flagged for a closer look

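The decitabine effect differed between the lines for 4638 genes by the test of the difference itself, and the 20 named by size are listed here with the difference of the effects on the log2 scale. Higher in MOLM-13 were C3 (1.28), SH3TC1 (1.25), FOS (0.96), SEPT5-GP1BB (0.96), CD86 (0.90), KRT17 (0.83), SORL1 (0.81), CYTIP (0.80), TRIM22 (0.80) and MPO (0.79). Lower in MOLM-13 were EPX (−2.33), GCNA (−1.52), IKZF2 (−1.45), CLC (−1.30), HK3 (−1.23), H1-3 (−1.23), CPXM1 (−1.10), H3C12 (−1.10), RHEX (−1.06) and THSD7A (−1.01). All 20 kept their call when any of the 12 DMSO and DAC samples was left out. The value of SEPT5-GP1BB is uncertain, since it is a readthrough gene, and those of H1-3 and H3C12 are uncertain because histone genes have near-identical copies.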

How the results depend on the processing

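In 21 settings the number of genes called stayed within 1.5 times of 4638, and the exception was a minimum size of 0.5, which left 186 genes, 91 higher in MOLM-13 and 95 lower. Leaving out each sample gave between 3916 and 5128 called genes, 1562 to 2111 higher and 2354 to 3017 lower. The lowest was without HL-60 DAC replicate 3 and the highest without MOLM-13 DAC replicate 1, the sample furthest from the other replicates of its group. Without MOLM-13 DAC replicate 3, whose 10 highest genes held the smallest share of the summed value, 4016 were called. Centring each sample on the median of its whole file, chosen after seeing the data, gave 5894 called genes with 4548 lower and 1346 higher, and 4112 of the 4638 genes kept their call and direction. Quantile normalization within each line called 2036 higher and 2130 lower. The median difference over all genes was −0.00443 as deposited, −0.0178 after centring, −0.0437 after whole-file centring and −6.27e-05 after quantile normalization. A replicate block within each line left 4288 called, 1755 higher and 2533 lower. Same-numbered DMSO and DAC samples did not deviate together (correlations from −0.16 to 0.025). The labels state no pairing, and these correlations cannot show whether same-numbered samples were prepared together.

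Of 90 genes chosen by the naming rule that were called, 85 kept their call in each refit and 0 reversed; the others were USP18, FCGR1A, DDIT3, TET2 (0.104 after whole-file centring) and IL3RA (−0.171 after quantile normalization). A minimum size of 0.5 would leave out 49 of them. The median of the surface receptor list, −0.0244, was 0.0253 after quantile normalization, and that of the granule list was 0.0258. The cause of these shifts was not tested.

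The concentration cannot be told apart from the line, genes absent from a line's files have no difference, and differences of genes low in either line are compressed.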

Other observations

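The 2 directions differed in the kinds of RNA they held. Of 1638 long noncoding RNA genes tested, 231 were called higher in MOLM-13 and 42 lower, with a median difference of 0.0423, whereas of 11190 protein-coding genes 1476 were called higher and 2600 lower, with a median of −0.0245. Transcribed pseudogenes went with the long noncoding RNAs, 58 higher and 13 lower of 413. Small nucleolar RNA genes, which guide the modification of ribosomal RNA, were called lower in 31 of 312 cases and higher in 3, with a median of −0.0231. Of 324 microRNA genes, 12 were called higher by limma and 0 lower (22 and 2 at an unadjusted p under 0.05). The median level in the lower line was 5.68 for long noncoding RNA, 5.44 for small nucleolar RNA, 2.41 for microRNA and 10.8 for protein-coding genes, so these classes also differ in level. Of all genes 30.0% were called, against 36.4% of protein-coding, 16.7% of long noncoding and 10.9% of small nucleolar RNA genes. Transcribed pseudogenes were called in 17.2% of cases and microRNA genes in 3.7%. Over all genes, 12.1% were called higher and 17.9% lower. Of the 1566 genes of any kind below 4 in the lower line, 6.9% were called, 78 higher and 30 lower. Host genes and the RNAs inside them can share reads.

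Several genes linked to decitabine and to these lines could not be compared at all, because they were listed for 1 line. CDKN1A, CDA, AXL, HOXA9, MEIS1 and the class II genes HLA-DRA and HLA-DRB1 were listed for MOLM-13 alone. KIT, IKZF3, PRAME, ERG and SLC28A3 were listed for HL-60 alone. In all, 1958 genes were listed for MOLM-13 alone and 1593 for HL-60 alone.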
